A study of Rattus norvegicus with 9 samples.

Results

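The nuclear-encoded subunits of oxidative phosphorylation were followed in RNA of the rat hippocampus. They were taken by gene name from a table of 30562 IDs: the Nduf genes of complex I, Sdha to Sdhd of complex II, the Uqcr genes of complex III, Cox4 to Cox8 of complex IV and the Atp5 genes of ATP synthase. The patterns matched 100 IDs. Of these, 14 marked as pseudogenes (-ps) and 3 second IDs of a name (Atp5mc1, Cox6b1 and Ndufb2) were left out, and 83 genes remained. They comprised 39 genes of complex I, 4 of complex II, 8 of complex III, 15 of complex IV and 17 of ATP synthase. In all they held 65531 counts, 0.956% of the total.

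The libraries came from male Sprague-Dawley rats that were 6 to 8 weeks old at the start, with 3 libraries in each of 3 groups. Ctrl is the normal control group, for which the labels name no treatment. Model rats had a high-fat diet for 4 weeks, 1 injection of streptozotocin at 50 mg/kg, which damages the insulin-producing cells, and 5 weeks of unpredictable mild stress. ChryM rats received chrysophanol, a plant anthraquinone, by oral gavage for 14 days. That they had also gone through the diabetes and stress protocol follows from the title of the series and is not stated in their labels, which give neither the dose nor a vehicle. The labels do not tie libraries to animals, so a p-value here reflects how these libraries vary among themselves, and that variation can be technical.

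Oxidative phosphorylation takes electrons from NADH at complex I and from succinate at complex II, passes them through complex III and cytochrome c to complex IV, where oxygen is reduced, and uses the proton gradient so made to drive ATP synthase. Mitochondrial DNA encodes the catalytic core of complex IV, cytochrome b of complex III, part of the membrane arm of complex I and a pair of ATP synthase subunits, and the nucleus encodes all other subunits and all of complex II. Neurons rely on the pathway for the ion pumping that synaptic activity requires. NRF1, GABP (an ETS factor) and YY1 are known regulators of the promoters of these nuclear genes.

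Promoters of 7 members are shown because the genes differ in which of these factors' motifs lie before the start. Of these, 6 were higher in ChryM than in Ctrl with such a motif, and Cox7a1 was higher without one. Atp5if1, Atp5f1d and Ndufb2 were also higher, hold none of the motifs in their promoters and are not shown. Uqcrc2 and Ndufs7 were lower in ChryM than in Ctrl, hold an ETS and a YY1 motif respectively and are not shown either. A link between motif and change was not tested. The sequences are from RefSeq, build GRCr8, and run 5′ to 3′ on the strand of the gene up to the last base before its transcription start. Capitals mark motif matches. The first 4 carry the ETS motif CCGGAAG close to the start: Ndufa13 (chr16:19560396-19560525, + strand) at -9 and, on the opposite strand, at -126, with a YY1 match at -47, Cox5b (chr9:46417737-46417836, + strand) at -14, Ndufb7 (chr19:41477292-41477391, - strand) at -16 and Uqcrq (chr10:38089979-38090078, - strand) at -22. Positions give the first base of the match relative to the start.
Ndufa13: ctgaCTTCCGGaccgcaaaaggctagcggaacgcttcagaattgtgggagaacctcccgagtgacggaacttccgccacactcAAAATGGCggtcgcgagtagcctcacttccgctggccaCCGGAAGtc
Cox5b: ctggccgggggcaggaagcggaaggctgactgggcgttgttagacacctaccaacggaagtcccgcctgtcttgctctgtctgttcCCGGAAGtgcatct
Ndufb7: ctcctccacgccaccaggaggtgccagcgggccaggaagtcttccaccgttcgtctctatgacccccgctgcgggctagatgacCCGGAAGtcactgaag
Uqcrq: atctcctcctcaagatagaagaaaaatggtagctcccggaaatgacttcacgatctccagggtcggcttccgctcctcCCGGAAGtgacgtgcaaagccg
The next pair carries the NRF1 motif: Atp5po (chr11:44657484-44657583, - strand) at -59 and Ndufs5 (chr5:141264403-141264552, - strand) at -129. The last, Cox7a1 (chr1:94569066-94569215, + strand), holds none of the 3 motifs in this stretch.
Atp5po: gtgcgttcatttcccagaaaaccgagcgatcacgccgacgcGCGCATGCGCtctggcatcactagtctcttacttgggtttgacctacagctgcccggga
Ndufs5: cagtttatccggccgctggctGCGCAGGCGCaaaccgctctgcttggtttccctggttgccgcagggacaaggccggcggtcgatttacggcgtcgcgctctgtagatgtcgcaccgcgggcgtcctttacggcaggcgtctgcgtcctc
Cox7a1: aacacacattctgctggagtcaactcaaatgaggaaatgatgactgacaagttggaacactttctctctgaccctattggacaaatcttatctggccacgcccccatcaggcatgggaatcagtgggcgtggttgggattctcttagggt

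Of the 83 members, 72 had a RefSeq promoter of 300 bases (250 before the start and 50 from it on), which was searched on both strands. The NRF1 motif (GCGCA, then any base, then GCGC) was in 14 of them (19.4%), against 4.71% of all 27457 promoters and 6.09% of the 19005 of protein-coding genes. The ETS motif CCGGAAG was in 20 (27.8% against 9.22% and 11.2%) and the YY1 motif AANATGGC in 28 (38.9% against 7.36% and 8.02%). A match of one motif that overlaps a match of another counted for both. The YY1 matches lay at a median of 5 bases from the start, with 19 of 28 reaching past it, and the NRF1 and ETS matches at medians of -56 and -48. Of the 16 members higher in ChryM than in Ctrl (below), 14 had a promoter in the table: 3 held the NRF1 motif (Atp5po, Ndufb4, Ndufs5), 6 the ETS motif (Cox4i1, Cox5b, Ndufa13, Ndufa6, Ndufb7, Uqcrq) and 4 the YY1 motif (Atp5po, Cox7b, Ndufa13, Ndufa6). Of the 2 members called lower in that comparison, 0 held the NRF1 motif, 1 the ETS motif (Uqcrc2) and 1 the YY1 motif (Ndufs7). Among the 48 tested members with a promoter that were not called in it, 9, 12 and 19 held the NRF1, ETS and YY1 motifs. A match is a description of the sequence and not a bound site.

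Library totals ran from 631119 to 866048 counts, and the median tested member had 38 to 59 counts per library. Neuronal markers were present: 10 genes including Snap25, Syt1 and Map2 summed to 3716 to 5301 CPM across the libraries, CPM being counts scaled to the same total in every library. The groups differed in other tissue markers. The 10 choroid plexus genes summed to 1743 to 1805 CPM in Ctrl, 26.9 to 44.0 in Model and 75.1 to 86.9 in ChryM. The 10 myelin genes summed to 15545 to 16656, 8508 to 9422 and 15068 to 16484 CPM, and the 7 meningeal fibroblast genes to 154 to 171, 19.7 to 25.9 and 20.8 to 25.4 CPM. The 10 neuronal genes had means of 5085, 4804 and 3846 CPM in Ctrl, Model and ChryM, and the 8 astrocyte genes 1686, 1482 and 1409 CPM. The means were 350.4, 75.7 and 104 CPM for 4 erythroid genes, 171, 171 and 119 for 9 microglial genes, 95.9, 76.7 and 57.3 for 6 endothelial genes and 464, 449 and 501 for 10 genes of hippocampal subfield neurons. Their part in the results below was not tested. In bulk tissue, fewer cells of a type and less RNA per cell cannot be told apart.

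The libraries were made with a kit that keeps the strand of the RNA, but whether reads were counted by strand is not given in the sources used here. Mt-nd6, the only mitochondrial mRNA gene coded on the other strand of mitochondrial DNA, stood at 42036 FPKM (fragments per kilobase of gene length, scaled to library depth), against 1659 to 7417 FPKM for the 12 others. In RefSeq 19 members are overlapped by a gene on the opposite strand. Of the 16 overlaps in which the overlapping gene, on either strand, had counts in the table, that gene had more counts than the member in 8. Uqcrc2, a core protein of complex III, had 273 counts and Pdzd9 on the opposite strand 15642. Cox7a1, the heart and skeletal muscle isoform of a complex IV subunit, had 17038 counts and Capns1, a calpain subunit gene on the opposite strand, 613. Without the setting, reads of a member and of a gene that overlaps it on the other strand cannot be told apart. If reads were counted on the strand opposite to transcription, a possibility that the values of Mt-nd6, Cox7a1 and Uqcrc2 raise and that was not tested, the value of every member is affected, with or without an overlap. The counts of called members below are also given for the 53 tested members that no opposite-strand gene overlaps, which bears on mixed reads and not on that possibility.

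Levels between genes were compared in FPKM, which is per length. The median member stood at 42.0 FPKM, and medians were 32.6 for complex I, 15.6 for complex II, 62.8 for complex III, 71.8 for complex IV and 60.0 for ATP synthase. The highest member was Cox7a1 at 1488 FPKM, with 26.0% of all member counts. Genes of striated muscle were listed lower, 7 of them summing to 20.6 to 50.9 CPM. Myh6, Acta1, Myh7 and Actn3 had 99, 62, 57 and 9 counts in all libraries together, and Ckm, Myl1 and Tnnt3 had 3, 2 and 1. Whether muscle tissue had a part in the value of Cox7a1 was not tested. Uqcr11, a small subunit of complex III, followed at 806 FPKM, then the ATP synthase inhibitor Atp5if1 (372), Cox6a1 (351), Atp5mc1 (349.7), which encodes the membrane ring subunit c, and Cox6b1 (335). In complex I the highest were the accessory subunits Ndufb7 (233 FPKM) and Ndufb8 (218). The 5 members with the most counts (Cox7a1, Uqcr11, Cox4i1, Ndufs7 and Atp5f1b) held 43.4% of member counts.

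The paralogues of complex IV and complex I split into a measured form and a form near 0. Cox4i1, the widely expressed isoform of subunit 4, stood at 197 FPKM, while its lung and hypoxia-linked partner Cox4i2 had 3 counts in all. Cox6a1, the liver-type form found in most tissues, stood at 351 FPKM, and its heart and muscle partner Cox6a2 had 0 counts. Cox7b stood at 175 FPKM, and Cox7b2 had 0 counts. Ndufa4, named for complex I and now placed with complex IV, stood at 24.8 FPKM, and Ndufa4l2, known for its induction by hypoxia, had 11 counts. In the Cox7a set the muscle form Cox7a1 was listed at 1488 FPKM and Cox7a2 and Cox7a2l both at 35.8 FPKM. With the strand setting not given, the value under Cox7a1 cannot be read as the level of that isoform in the hippocampus. If reads were counted on the strand opposite to transcription, the values of the other paralogues are affected as well. For subunit c, which 3 genes encode, Atp5mc1 stood at 349.7 FPKM, Atp5mc3 at 42.0 and Atp5mc2 at 29.8. Of the 83 members 11 had too few counts to be tested: Cox6a2, Cox7b2, Cox8c and Ndufb4l1 had 0 counts, and among the others Atp5f1e, Atp5me, Cox4i2, Ndufa10l1, Ndufa4l2 and Ndufs6 had 3 to 46.

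**Figure D1:**
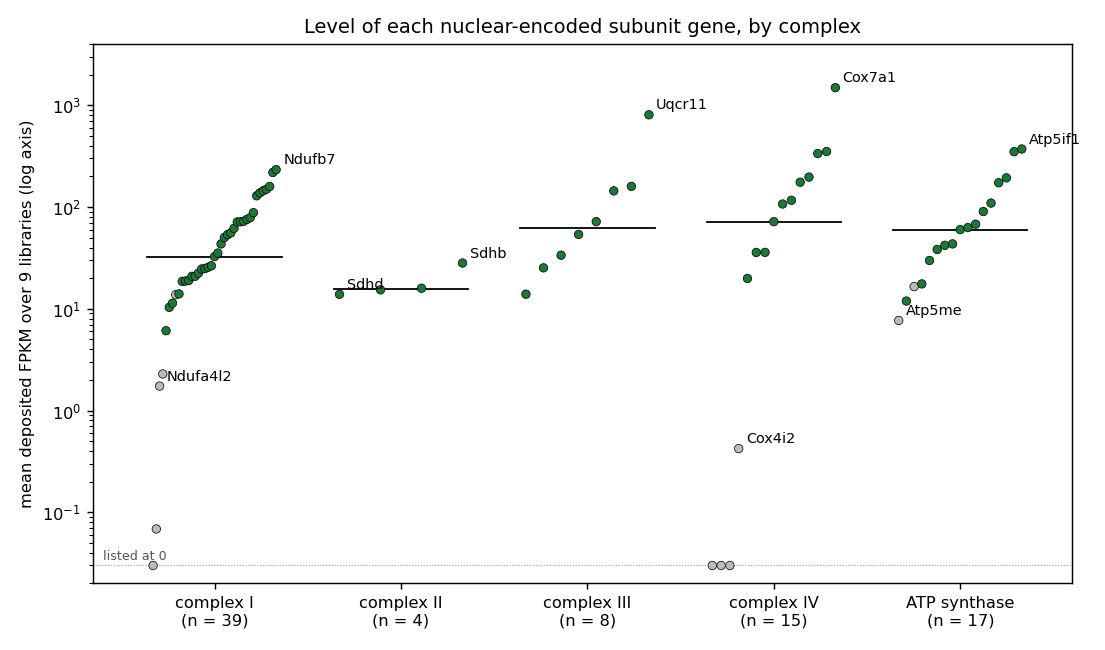
Mean deposited FPKM over 9 libraries of each of the 83 members, on a log axis, by complex. Green points are the 72 tested members and grey points the 11 that were not; the black lines are the medians over all members of a complex, such as 71.8 FPKM in complex IV, where Cox7a1 stands at 1488 FPKM.

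Summed over all 83 members, the level was 9305 ± 169.7 CPM of the library total in Ctrl, 9367 ± 119.8 in Model and 9957 ± 548 in ChryM (SD, n = 3). The ChryM libraries lay at 10219, 10325 and 9328 CPM, so ChryM 3 lay within the range of Ctrl (9109 to 9414). Without Cox7a1 the sums were 6931 ± 280.4, 6903 ± 106 and 7340.3 ± 434 CPM, and the groups overlapped. Complex IV summed to 3557 to 3696 CPM in Ctrl, 3787 to 3929.5 in Model and 3904 to 4270.1 in ChryM, the last pair overlapping. Without Cox7a1 no groups of complex IV overlapped: the sums were 1194 to 1292 CPM in Ctrl, 1366 to 1414 in Model and 1439 to 1583 in ChryM. Complex II summed to 165 to 179 CPM in Ctrl, 146 to 175 in Model and 142 to 151 in ChryM, with ChryM below every Ctrl library and Model overlapping both. The sums of complex I (2683 ± 159.6, 2643 ± 43.1 and 2834 ± 145 CPM), complex III (952 ± 69.1, 902 ± 44.6 and 982 ± 93.3) and ATP synthase (1873 ± 23.5, 1807 ± 109 and 1871 ± 140.2) had groups that overlapped. The 13 mitochondrially encoded mRNAs, which the same complexes need, summed to 75115 ± 8305, 78532 ± 5325 and 79379 ± 4832 CPM and overlapped as well. Mt-nd6 held 149057 of their 531958 counts and ran from 13641 to 27437 CPM within Ctrl, so these sums rest largely on that gene. The sums without it were not computed. The median log2 fold change of the 13 was -0.03 in Model and 0.06 in ChryM, each against Ctrl. No test was made of a sum.

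**Figure D2:**
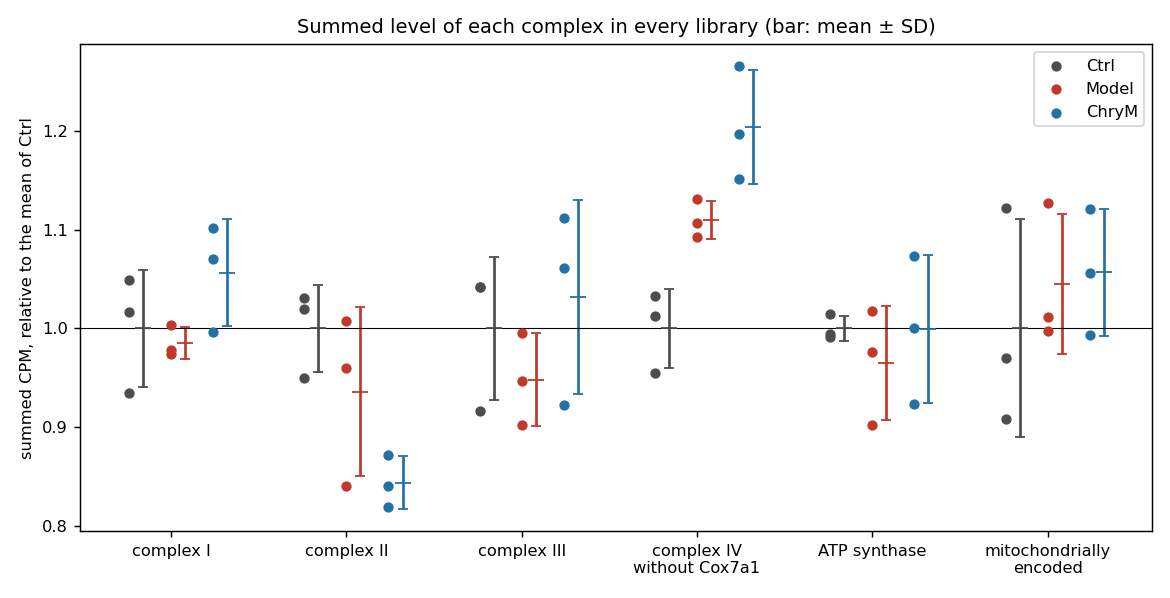
Summed CPM of each complex in every library, relative to the mean of the 3 Ctrl libraries; points are libraries and bars the mean ± SD of a group. Complex IV without Cox7a1 lies at 1439 to 1583 CPM in ChryM, above all Ctrl libraries (1194 to 1292 CPM), and complex II in ChryM lies below all Ctrl libraries. The mitochondrially encoded sum includes Mt-nd6, which held 149057 of its 531958 counts.

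The comparison of Model with Ctrl sets rats after diet, streptozotocin and stress beside controls. In it 7 of 72 tested members were called at an adjusted p under 0.05 (9.72%), 5 higher and 2 lower. Over all 7073 genes tested the share was 12.4%, with 7.04% higher and 5.39% lower. The members' share was not above that of all genes. The median log2 fold change of the members was 0.13, against -0.02 for all genes. At an unadjusted p under 0.05 there were 20 members. The share of all genes at that p was taken only for ChryM against Model, so unadjusted counts elsewhere have no such share beside them. Of the 53 members without an opposite-strand overlap 6 were called, 4 higher and 2 lower. Changes are given as log2 fold changes ± standard error (SE) from the quasi-likelihood test of edgeR, the p being adjusted over all genes tested by the method of Benjamini and Hochberg, and single genes in CPM scaled by the trimmed mean of M-values (TMM).

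The complex IV members that rose in Model, Cox6a1 and Cox5b, surround the catalytic core. Cox6a1 stood at 173, 164 and 194 CPM in Ctrl and at 266, 248 and 255 in Model. Every Model library lay above every Ctrl library (0.54 ± 0.11, adjusted p = 4.17e-05). Cox5b, a zinc-binding subunit on the matrix side, went from 199, 178 and 144 CPM to 233, 248 and 193, and the groups overlapped (0.35 ± 0.11, adjusted p = 0.0220). In complex I the accessory subunits Ndufb7 and Ndufb8 of the membrane arm rose. Ndufb7 stood at 82.8, 113 and 103 CPM in Ctrl and at 129, 150.3 and 142 in Model, without overlap (0.49 ± 0.14, adjusted p = 0.00604). Ndufb8 stood at 155, 134 and 161 CPM and at 158, 227 and 222, so that Model 1 lay among the Ctrl libraries (0.44 ± 0.12, adjusted p = 0.00435).

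Ndufs7, which carries the iron-sulfur cluster next to the ubiquinone site of complex I, fell. It stood at 521, 543 and 482 CPM in Ctrl and at 342, 417 and 379 in Model, all Model libraries lying below all Ctrl libraries (-0.45 ± 0.09, adjusted p = 2.98e-05). Among ATP synthase genes one rose and one fell. Atp5f1d, the delta subunit of the central stalk, went from 141, 125 and 140.0 CPM to 161, 150.3 and 201 (0.35 ± 0.12, adjusted p = 0.0407). Cbarp, which overlaps it on the opposite strand with 1144 counts against 1067, had a log2 fold change of 0.30 ± 0.12 (adjusted p = 0.0783). Atp5pb, a subunit of the peripheral stalk, went from 88.9, 109 and 84.8 CPM to 52.2, 64.9 and 81.2, without overlap (-0.50 ± 0.17, adjusted p = 0.0326). No member of complex II (0 of 4) or complex III (0 of 8) was called with edgeR, and 0 and 2 of them had an unadjusted p under 0.05. The inhibitor Atp5if1, which restrains ATP hydrolysis, stood at 151, 153 and 164 CPM in Ctrl and 210.3, 173 and 197 in Model, which just missed the threshold (0.31 ± 0.12, adjusted p = 0.0550).

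Cox6a1 and Ndufs7 kept their calls in all 20 alternatives run for them. Leaving out 1 library ended the call of Ndufb7 (without Ctrl 1, adjusted p = 0.114), Ndufb8 (without Ctrl 2, Model 2 or Model 3, up to 0.0715), Cox5b (without Ctrl 3, Model 1 or Model 2, up to 0.180), Atp5f1d (without Ctrl 1, Ctrl 2 or Model 3, up to 0.448) and Atp5pb (without Ctrl 1, Ctrl 2, Model 1 or Model 2, up to 0.239). Calls were gained as well: Atp5if1 without Ctrl 3, Model 2 or ChryM 1 (adjusted p = 0.0382 to 0.0496), Cox7a1 and Cox4i1 without Ctrl 3 (0.00196 and 0.0404), Cox6c without Model 2 (0.0394) and Cox7b without Model 1 (0.0274), all higher. Without Ctrl 2 the count of called members was 4 (5.56%, against 8.37% of all genes). With library totals in place of TMM scaling 3 members were called (4.17%, against 13.2% of all genes). Of these 1 was higher (Cox6a1) and 2 lower (Ndufs7 and Atp5pb), and that scaling moved the median of all genes by -0.12. The median of the members less that of all genes was 0.144 and stayed between 0.0959 and 0.162 over all alternatives.

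The comparison of ChryM with Ctrl asks how far treated rats stood from controls, and shares the Ctrl libraries with the comparison above. In it 18 of 72 members were called (25.0%), 16 higher and 2 lower. Over all genes tested 18.8% were called, 9.83% higher and 8.96% lower, so that 22.2% of the members against 9.83% of all genes were higher. The share called was not above that of all genes with library totals (12.5% of members, 18.9% of all genes), without Ctrl 2 (12.5% and 13.8%), without ChryM 2 (13.9% and 14.0%), with a mean count of at least 30 (33.3% and 36.2%) or with DESeq2 (7 of 68 members, 13.2% of all genes). The median log2 fold change of the members was 0.15, against -0.01 for all genes. By complex, 6 of 11 tested complex IV members were higher, 6 of 34 in complex I with 1 lower, 1 of 8 in complex III with 1 lower, 3 of 15 in ATP synthase and 0 of 4 in complex II. Of the 53 members without an opposite-strand overlap 13 were called, 12 higher and 1 lower.

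In complex IV, Cox6a1 stood at 259.7, 267 and 263 CPM in ChryM, and all 3 libraries lay above those of Ctrl, which ran from 164 to 194 CPM (0.58 ± 0.10, adjusted p = 2.22e-06). Cox5b stood at 253, 240.3 and 246 CPM against 144 to 199 CPM in Ctrl (0.50 ± 0.11, adjusted p = 0.000115). Cox6c, a small membrane subunit, had the largest fold of the called members: 19.5, 30.2 and 35.3 CPM in Ctrl, 60.3, 27.3 and 37.2 in Model and 41.6, 67.6 and 48.4 in ChryM. The ChryM libraries lay above the Ctrl libraries, while Model overlapped both (0.92 ± 0.22, adjusted p = 0.000945). Cox4i1, the isoform of subunit 4 found in most tissues, went from 398, 397 and 431 CPM to 468, 518 and 479 (0.26 ± 0.08, adjusted p = 0.0166). Cox7b went from 98.7, 82.0 and 90.5 CPM to 117, 132 and 107 (0.40 ± 0.14, adjusted p = 0.0303). Cox7a1 went from 2276, 2231 and 2572 CPM to 2856, 2639 and 2618 (0.20 ± 0.07, adjusted p = 0.0292), while the log2 fold change of Capns1 opposite it was -0.06 ± 0.15 (adjusted p = 0.835). In all 6 genes the 3 ChryM libraries lay above the 3 Ctrl libraries. That adds no support to the calls, since they were made on the same libraries. The same holds for each called gene described here as without overlap. The share of all genes without overlap was not computed, and some members not called, such as Atp5mc2, also had none. The values of Cox6b1 were 157 to 175 CPM in Ctrl and 154 to 194 in ChryM (0.11 ± 0.11, adjusted p = 0.531), and those of Cox7a2l 56.0 ± 7.93 and 49.4 ± 6.81 (-0.18 ± 0.19, adjusted p = 0.558).

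In complex I, Ndufb7 stood at 145, 152 and 149 CPM in ChryM against 82.8 to 113 CPM in Ctrl (0.58 ± 0.13, adjusted p = 0.000246). Ndufa13, also known as GRIM-19, went from 101, 111 and 113 CPM to 140.0, 148 and 138 (0.40 ± 0.13, adjusted p = 0.0161). Ndufs5, an accessory subunit, went from 54.8, 47.0 and 38.2 CPM to 80.7, 53.7 and 73.4, with ChryM 2 among the Ctrl libraries (0.55 ± 0.18, adjusted p = 0.0231). The accessory subunits Ndufa6, Ndufb2 and Ndufb4 were higher by 0.48 ± 0.16, 0.57 ± 0.21 and 0.47 ± 0.18 (adjusted p = 0.0269, 0.0391 and 0.0472), and their groups did not overlap. Ndufs7 was lower, at 434, 457 and 426 CPM against 482 to 543 in Ctrl (-0.23 ± 0.08, adjusted p = 0.0340). Complex I has a catalytic core that carries the electrons and accessory subunits around it. This grouping was made after the values were seen. It counted all tested Nduf members outside the core as accessory, Ndufa4 and the Ndufs6-like Ndufs6l1 among them. Of these 28, 6 rose and 0 fell with a median of 0.25, while 0 of 6 core subunits rose and 1 fell (Ndufs7) with a median of 0.04. The difference between the groups of subunits was not tested. Ndufb8, which rose in Model, stood at 161, 183 and 152 CPM in ChryM (0.15 ± 0.12 against Ctrl, adjusted p = 0.404).

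Complex III held 1 rise and 1 fall. Uqcrq, a small subunit next to cytochrome b, went from 64.6, 50.7 and 48.1 CPM in Ctrl to 76.9, 81.6 and 76.1 in ChryM, without overlap (0.52 ± 0.17, adjusted p = 0.0202). Uqcrc2 went from 48.7, 59.1 and 50.9 CPM to 26.5, 40.8 and 23.5, all ChryM libraries below all Ctrl libraries, and the Model libraries, at 37.5, 44.4 and 35.8, overlapped ChryM (-0.78 ± 0.21, adjusted p = 0.00356). Pdzd9, which overlaps Uqcrc2 on the opposite strand, stood at 2203 ± 239 CPM in Ctrl and 2381 ± 144 in ChryM (0.11 ± 0.07, adjusted p = 0.280). Uqcr11, the highest of complex III, stood at 440.2 ± 10.8, 430.5 ± 12.6 and 491 ± 75.5 CPM in Ctrl, Model and ChryM (0.16 ± 0.08 against Ctrl, adjusted p = 0.204). Its ChryM mean rests on ChryM 1 at 577 CPM, while the other 8 libraries lay between 423 and 453.

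Of ATP synthase genes, Atp5if1 stood at 211, 198 and 212 CPM in ChryM against 151 to 164 in Ctrl (0.41 ± 0.11, adjusted p = 0.00304). Atp5po, the oligomycin sensitivity protein that ties the peripheral stalk to the catalytic head, stood at 76.7, 68.7 and 66.4 CPM in Ctrl, 65.2, 80.3 and 85.4 in Model and 101, 103 and 102 in ChryM. The ChryM libraries were close together and above the other 6 (0.53 ± 0.15, adjusted p = 0.00603). Atp5f1d stood at 171, 182 and 170.2 CPM in ChryM (0.37 ± 0.12, adjusted p = 0.0149), and Cbarp opposite it had a log2 fold change of 0.13 ± 0.11 (adjusted p = 0.488). None of the subunit c genes was called with edgeR: Atp5mc2 had a log2 fold change of 0.71 ± 0.31 (adjusted p = 0.0887), Atp5mc1 of -0.05 ± 0.10 (adjusted p = 0.804) and Atp5mc3 of -0.34 ± 0.18 (adjusted p = 0.201).

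The log2 fold changes of the 54 members not called in ChryM against Ctrl ran from -0.45 (Sdha) to 0.71 (Atp5mc2), with a median SE of 0.18. Those of the 65 not called in Model against Ctrl ran from -0.45 (Cox7a2) to 0.57 (Cox6c), with a median SE of 0.19.

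Complex II, which links the tricarboxylic acid cycle to the respiratory chain and has no mitochondrially encoded subunit, had the lowest median level of the complexes. None of its 4 members was called with edgeR in ChryM against Ctrl, and 1 had an unadjusted p under 0.05. Sdha, its flavoprotein, stood at 67.0, 62.7 and 83.4 CPM in Ctrl, 60.3, 59.8 and 67.5 in Model and 49.2, 51.3 and 54.0 in ChryM. The ChryM libraries lay below the other 6, and the test against Ctrl missed the threshold (-0.45 ± 0.18, adjusted p = 0.0576). The share of all genes so placed was not computed. The iron-sulfur subunit Sdhb stood at 51.0 ± 1.44, 62.7 ± 11.6 and 56.7 ± 5.72 CPM (0.15 ± 0.19 in ChryM against Ctrl, adjusted p = 0.634). The membrane anchors Sdhc and Sdhd had log2 fold changes of -0.16 ± 0.27 (adjusted p = 0.744) and -0.29 ± 0.29 (adjusted p = 0.547).

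Cox6a1, Cox5b, Ndufb7 and Atp5if1 kept their calls against Ctrl in all 20 alternatives run for them, and Uqcrc2 and Atp5po lost them with DESeq2 (adjusted p = 0.0812 and 0.0625). Without ChryM 2 the calls of Cox6c (adjusted p = 0.0611), Atp5f1d, Ndufa13, Cox4i1, Uqcrq, Ndufa6, Cox7b, Ndufb2, Ndufb4 and Ndufs7 ended and others were gained, among them Atp5pb as lower (-0.55, adjusted p = 0.0243), so that 10 members were called. Without Ctrl 2, which left 9, those of Atp5f1d, Cox4i1, Uqcrq, Ndufs5, Cox7a1, Cox7b, Ndufb2, Ndufb4 and Ndufs7 ended. Without Ctrl 1 those of Ndufa13, Cox4i1, Ndufa6, Cox7a1, Ndufb2 and Ndufs7 ended, without Ctrl 3 those of Uqcrq, Ndufs5, Ndufa6, Cox7b and Ndufb4, without ChryM 1 those of Ndufs5, Cox7a1, Cox7b, Ndufb4 and Ndufs7, and without ChryM 3 those of Ndufs5, Ndufa6, Ndufb2, Ndufb4 and Ndufs7. Ndufb4 also lost its call without Model 1 or Model 2. The adjusted p of the calls lost this way ran up to 0.213 (Ndufb2). With library totals 6 members were higher and 3 lower, and with DESeq2 7 were higher and 0 lower of 68 with an adjusted p. The members' median less that of all genes was 0.164 and stayed between 0.105 and 0.204 over all alternatives.

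**Figure D3:**
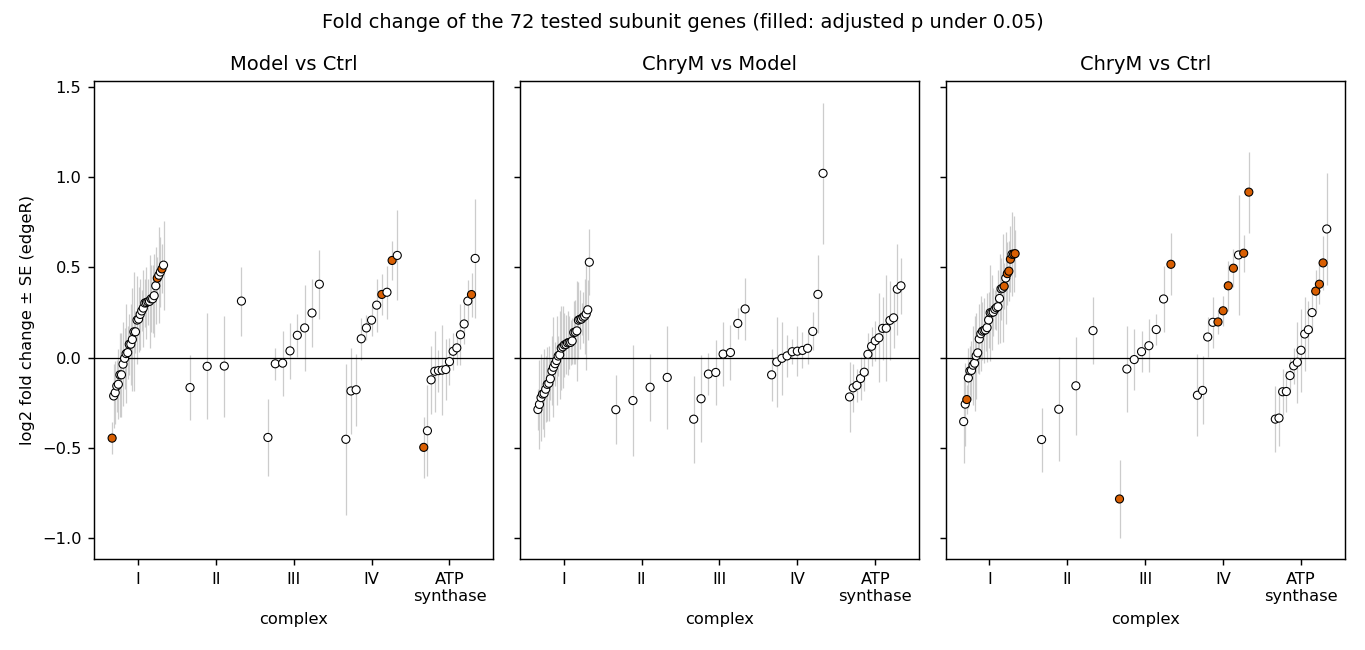
Log2 fold change ± SE of the 72 tested members in each comparison, by complex, sorted within a complex; filled points have an adjusted p under 0.05. Filled points are 7 in Model vs Ctrl, 0 in ChryM vs Model and 18 in ChryM vs Ctrl.

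**Figure D4:**
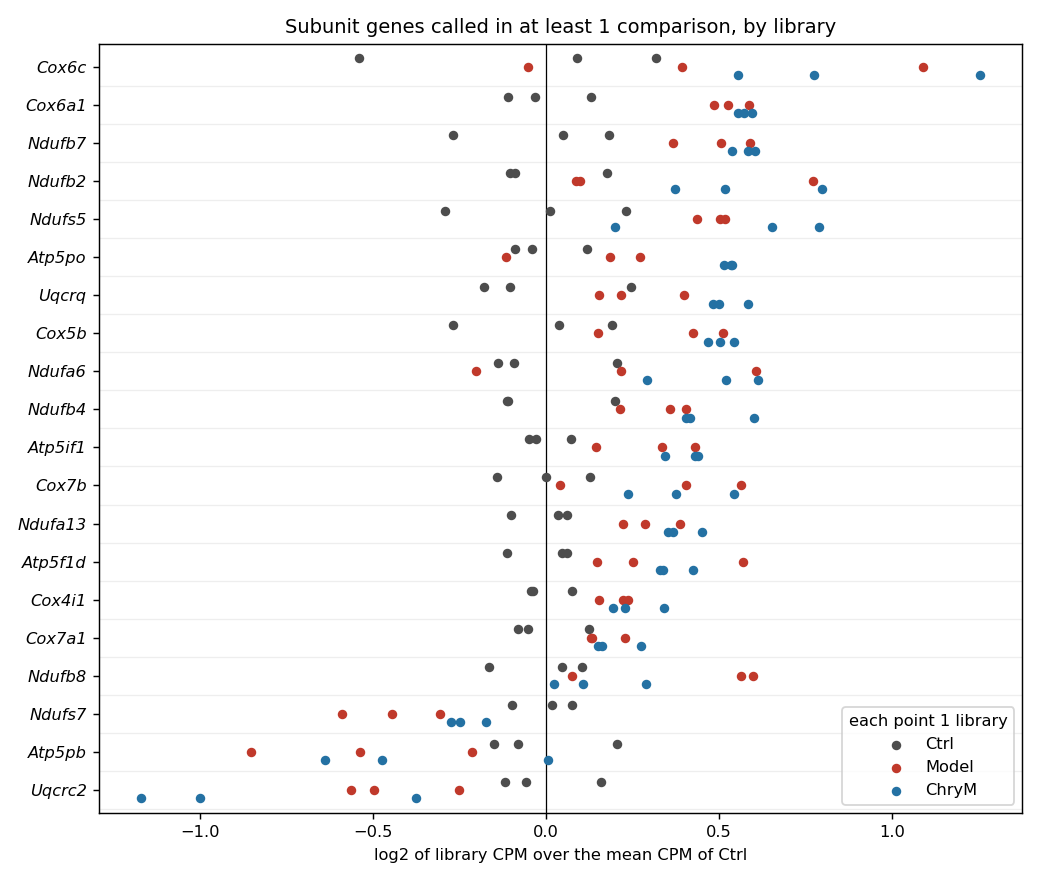
Log2 of each library's CPM over the mean of Ctrl for the 20 members called in at least 1 comparison, with 1 point per library. The ChryM points of Cox6a1 (259.7 to 267 CPM) and Ndufb7 (145 to 152 CPM) lie beside the Model points and to the right of every Ctrl point.

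The comparison of ChryM with Model, which sets the rats given chrysophanol beside those without it, called 0 of 72 members with edgeR. Over all genes tested 8.27% were called, 3.86% higher and 4.41% lower. At an unadjusted p under 0.05 there were 6 members, a share below the 19.3% of all genes, and DESeq2 called 0 of 52 with an adjusted p. The median log2 fold change was 0.03 for the members and 0.00146 for all genes. Of the members that rose in Model, Cox6a1 differed by 0.04 ± 0.10 (adjusted p = 0.880), Ndufb7 by 0.08 ± 0.13 (adjusted p = 0.792), Cox5b by 0.15 ± 0.11 (adjusted p = 0.489) and Atp5f1d by 0.02 ± 0.12 (adjusted p = 0.961). A p above the threshold does not show that the levels were equal. Ndufb8 was at 158, 227 and 222 CPM in Model and 161, 183 and 152 in ChryM (-0.29 ± 0.12, adjusted p = 0.116), and Ndufs7 at 342, 417 and 379 and 434, 457 and 426 (0.21 ± 0.09, adjusted p = 0.135). In both genes the ChryM mean lay between those of Ctrl and Model, and neither passed the test, but Ndufs7 did with library totals (0.27, adjusted p = 0.0200) and with a mean count of at least 30 (0.23, adjusted p = 0.0466).

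Ndufs6l1 and Atp5pf are named here after their values were seen. Ndufs6l1, an Ndufs6-like gene, stood at 53.8, 51.3 and 52.3 CPM in Model and 70.6, 88.6 and 66.4 in ChryM (0.53 ± 0.18, adjusted p = 0.0518). Cox7a2, the widely expressed partner of Cox7a1, stood at 9.78, 13.7 and 6.88 CPM and at 21.4, 23.3 and 15.2 (1.02 ± 0.39, adjusted p = 0.0812). Atp5po had a log2 fold change of 0.40 ± 0.16 (adjusted p = 0.103). In each of them all ChryM libraries lay above all Model libraries. That gives no support to a rise, since the share of all genes without overlap was not computed. Ndufs7 and Uqcrq were placed the same way, Sdha had all ChryM libraries below all Model libraries, and further members had no overlap in either direction. Ndufs6l1 was called without Ctrl 3 or without ChryM 3 (adjusted p = 0.0483 and 0.0428), with library totals (0.0276), with a mean count of at least 30 (0.0233) and with limma on log2(FPKM + 1) and log2(FPKM + 0.1) (0.0209 and 0.0222). The same limma fits called Cox7a2 (adjusted p = 0.0347 and 0.0388) and Atp5po (0.0410 and 0.0433), and library totals also called Uqcr11 (0.25, adjusted p = 0.0343). Ndufb8 and Atp5pf were called without Model 1, where Ndufb8 was lower (adjusted p = 0.0157) and Atp5pf higher (adjusted p = 0.0480).

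The members were shorter than most genes tested. The deposited gene length had a median of 1346 bases over the tested members, from 368 to 7248, against 3335 over the other 7001 tested genes. In ChryM against Ctrl the 29 members under 1000 bases had a median log2 fold change of 0.28, with 10 called higher (34.5%) and 0 lower. The 244 other genes of that length had a median of 0.23, with 52 higher (21.3%) and 9 lower. For the 26 members of 1000 to under 2000 bases the median was 0.05 with 3 higher, and for the 1273 others 0.08 with 155 higher and 73 lower. For the 17 members of 2000 bases or more it was 0.13 with 3 higher and 2 lower, and for the 5484 others -0.05 with 472 higher and 550 lower. In Model against Ctrl the members under 1000 bases had a median of 0.25 with 3 higher, and the others of that length 0.12 with 33 higher and 7 lower. In both comparisons the medians of the other genes were thus also highest under 1000 bases. The part of length in the members' values was not tested.

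**Figure D5:**
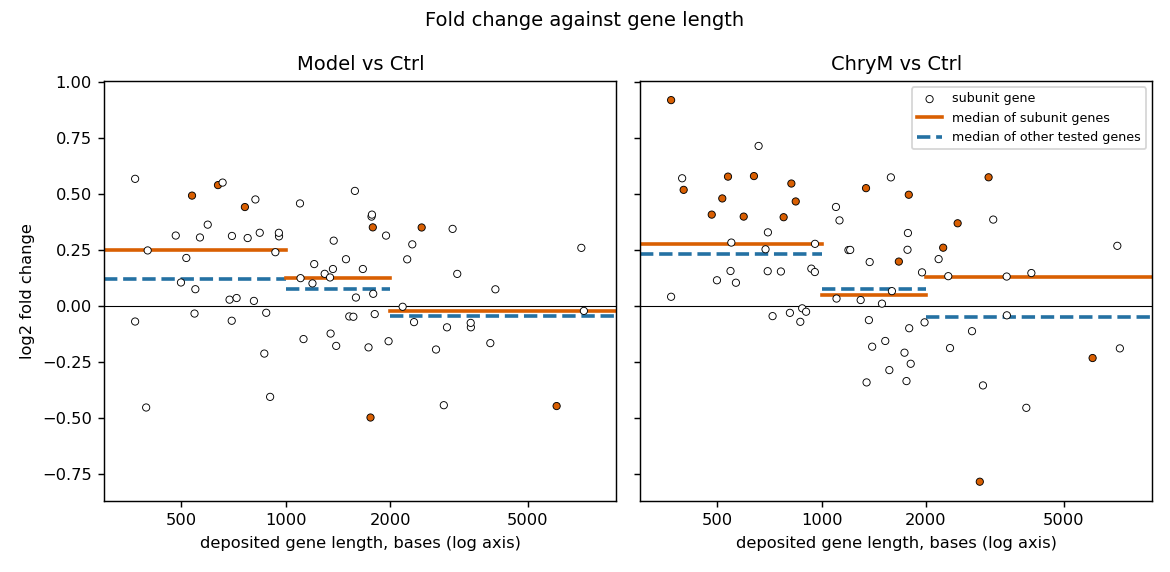
Log2 fold change against deposited gene length (log axis) for the 72 tested members in Model vs Ctrl and ChryM vs Ctrl; filled points have an adjusted p under 0.05. Solid lines are medians of members and dashed lines medians of the other tested genes in 3 length classes, 0.28 and 0.23 under 1000 bases in ChryM vs Ctrl.

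Of 9 tested assembly factors of complex IV, only Coa6, which works in the copper delivery to the enzyme, was called, higher in both comparisons with Ctrl: 137 ± 12.8, 186 ± 4.63 and 217 ± 19.5 CPM in Ctrl, Model and ChryM. It rose by 0.45 ± 0.12 in Model and 0.67 ± 0.11 in ChryM on the log2 scale (adjusted p = 0.00390 and 5.72e-07). None of 9 assembly factors of complex I, 6 IDs for those of complexes II and III (2 of them named Sdhaf1) and 1 of ATP synthase was called in any comparison with edgeR. At an unadjusted p under 0.05 there were 1, 0 and 0 in Model against Ctrl, 0, 1 and 0 in ChryM against Model and 0, 2 and 0 in ChryM against Ctrl. Of 15 tested enzymes of the tricarboxylic acid cycle and pyruvate dehydrogenase, none was higher in Model or ChryM than in Ctrl, and Cs and Dld were lower in both. Citrate synthase (Cs) stood at 85.0 ± 3.88, 57.2 ± 8.83 and 48.2 ± 10.2 CPM, with log2 fold changes of -0.58 ± 0.18 and -0.81 ± 0.17 against Ctrl (adjusted p = 0.0158 and 0.000115). Dld, the shared dihydrolipoyl dehydrogenase, changed by -0.56 ± 0.19 and -0.74 ± 0.19 (adjusted p = 0.0326 and 0.00123). The deposited lengths were 3143 bases for Dld and 3344 for Cs.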

How the data were processed

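Poly(A) RNA of the rat hippocampus was sequenced from strand-specific libraries, per the labels' protocols. Whole-number read counts per gene were deposited by the authors, and FPKM values with a gene length were deposited in a second table, per the file headers. The submitters' processing notes list HISAT2 and DESeq2, with no version. Which counter, strand setting, build and gene models were used is not given in the sources used here. FPKM recomputed from count, length and library total matched in 100% of values (relative tolerance 1e-09). No libraries held identical values.

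The members and gene lists were chosen with earlier results of these data known. Counts were filtered with filterByExpr (7073 of 30562 IDs kept), scaled by TMM (factors 0.956 to 1.07) and fitted over all 9 libraries with 1 coefficient per group with edgeR 4.0.16 (quasi-likelihood, robust, 6 residual degrees of freedom) in R 4.3.3. Tests were two-sided, called at a Benjamini-Hochberg adjusted p under 0.05. As SE stands whichever was larger, the counting error or the value the test implies. CPM of single genes are TMM-scaled, and sums are CPM of the library total. The fit was tested on simulated data. Levels between genes are FPKM. Named members are all 20 called ones, the 2 highest by FPKM of each complex, Sdha to Sdhd, Atp5if1 and the paralogue sets; others are said to be chosen after their values were seen, except genes named for an overlap. Overlaps and promoters are from RefSeq (GRCr8; 82 of 83 members matched). Alternatives were other scalings, DESeq2 1.42.0, limma 3.58.1 on log2(FPKM + 1) and log2(FPKM + 0.1), other count filters, a replicate block and fits without 1 library at a time. Alternatives chosen after seeing the data left out members overlapped on the opposite strand or mitochondrially encoded genes. Sums and medians over members have no test. Some genes are not reported here.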

Additional observations from a re-analysis of the deposited data

How the results depend on the processing

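The counts of called members moved with the scaling, the test and single libraries. With library totals alone 3, 3 and 9 members were called for Model against Ctrl, ChryM against Model and ChryM against Ctrl in this order, where 13.2%, 8.84% and 18.9% of all genes were called (members 4.17%, 4.17% and 12.5%), and with limma on FPKM 3, 3 and 10 with either pseudocount (7.82%, 4.98% and 11.2% of all genes with log2(FPKM + 1)). A mean count of at least 30 gave 2 of 54 in ChryM vs Model (18.7% of all genes), and DESeq2 gave 7 of 68 in ChryM vs Ctrl (13.2% of all genes). Leaving out each library gave 4 to 9, 0 to 2 and 9 to 18, or 5.56% to 12.5%, 0% to 2.78% and 12.5% to 25.0% of members. The shares of all genes called in these fits ran from 8.35% to 11.8%, 5.24% to 8.27% and 13.2% to 18.1%. The median log2 fold change of the members was 0.00440, 0.0901 and 0.0895 with library totals, 0.0243, 0.0892 and 0.0929 with limma on log2(FPKM + 1), and 0.0245, 0.0898 and 0.0939 on log2(FPKM + 0.1). With a mean count of at least 30 it was 0.0809 in Model vs Ctrl and 0.1001 in ChryM vs Ctrl, and leaving out each library gave 0.0856 to 0.151 in Model vs Ctrl. The cause of these moves was not tested, apart from library totals, which moved the median of all genes by -0.12 in Model vs Ctrl.

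Summed CPM changed by construction with the members and the total used. Without Cox7a1 it was 6931, 6903 and 7340.3 in Ctrl, Model and ChryM, as a share of named genes only 12121, 12363 and 12805, and without Cox7a1 and members overlapped on the opposite strand 5421, 5432 and 5805. With TMM scaling it was 9238, 10051 and 10287, so that Model stood nearer to ChryM than to Ctrl, unlike the sums of library totals. Over the 32 named and tested members, 1762 of 1906 values under an alternative stayed on their side of the threshold, 121 lost a call and 23 gained one. The 1906 include genes and comparisons not called in the main fit, which had no call to lose. All 121 losses fell on the 25 calls of the main fit, each run under 19 or 20 alternatives. A reversed sign was counted only where the gene was called in the main fit or in the alternative, and there were 0 such values. Changes of sign in genes called in neither were not counted. Of 25 calls, 6 held under every alternative. The labels give no pairing of libraries by replicate number. Correlations of same-numbered libraries were -0.0362 to 0.111, which cannot decide whether the libraries were paired. With the replicate block the counts were 7, 0 and 18, as without it, and 5 of 9 libraries correlated best with their own number. At 38 to 59 counts for the median member, the median SE of the members not called was 0.18 to 0.19 on the log2 scale.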

Other observations

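Some partners of the subunits, outside the comparisons above, also differed. Etfdh, the electron transfer flavoprotein dehydrogenase that feeds ubiquinone, stood at 492 ± 64.9, 491 ± 43.8 and 623 ± 21.0 CPM in Ctrl, Model and ChryM, and was higher in ChryM than in Model by 0.34 ± 0.08 on the log2 scale (edgeR, adjusted p = 0.00216). Coq2, an enzyme of ubiquinone synthesis, stood at 15.4 ± 1.40, 22.4 ± 7.52 and 8.46 ± 1.55 CPM (-1.36 ± 0.39 in ChryM against Model, adjusted p = 0.0104). They were the called ones among 10 tested subunits and carriers outside the naming patterns.

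Of 15 listed regulators of mitochondrial biogenesis only 3 had enough counts to be tested. Tfb1m, a mitochondrial rRNA methyltransferase, stood at 92.8 ± 16.1, 124 ± 15.1 and 158 ± 19.6 CPM in Ctrl, Model and ChryM, higher than Ctrl by 0.43 ± 0.14 and 0.78 ± 0.13 (edgeR, adjusted p = 0.0314 and 6.16e-07). Yy1, whose motif 28 member promoters hold, stood at 57.6 ± 6.24, 56.2 ± 8.39 and 40.0 ± 0.355 CPM, lower in ChryM than in Ctrl (-0.52 ± 0.20, adjusted p = 0.0498).

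Of the 13 mitochondrially encoded mRNAs, Mt-nd5 was higher in Model than in Ctrl (0.23 ± 0.07, adjusted p = 0.0189) and Mt-co2 higher in ChryM than in Model (0.23 ± 0.07, edgeR adjusted p = 0.0178), and 0 were called in ChryM against Ctrl, where 3 had an unadjusted p under 0.05. Genes that overlap members on the opposite strand had their own changes. Pdzd9 was higher in Model than in Ctrl by 0.19 ± 0.07 (edgeR, adjusted p = 0.0492), where Uqcrc2 had -0.44 ± 0.21 (adjusted p = 0.181). Zmat5, opposite Uqcr10, was higher in Model and ChryM than in Ctrl by 0.29 ± 0.10 and 0.36 ± 0.10 (adjusted p = 0.0473 and 0.00354), where Uqcr10 had -0.03 ± 0.18 and -0.01 ± 0.17 (adjusted p = 0.948 and 0.981).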
